A study of Mus musculus with 7 samples.

Results

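The open chromatin of pancreatic alpha cells was described from the ATAC-Seq peaks of 2 libraries of sorted mouse alpha cells, alpha 1 and alpha 2. Peaks of both alpha lists that overlapped by at least 1 bp were merged, and a merged region was kept when both lists had a peak in it. This gave 45594 regions, which are 23.4% of the 194624 regions that either alpha list contained. All 7 lists of the series, with 3 beta and 2 delta lists beside the alpha lists, merged into 834695 regions. The rule used presence in both alpha lists only, and neither the strength of a peak nor its place near a gene. Positions are on the mm10 (GRCm38) build, with gene models of GENCODE vM21.

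Alpha cells are the glucagon-secreting cells of the islet. They release glucagon when glucose is low and in response to amino acids, and glucagon makes the liver put out glucose. Their identity depends on transcription factors, which act at promoters and at distal elements. ATAC-Seq marks such elements because the Tn5 transposase inserts its adapters mainly where DNA is not packed around nucleosomes. A peak is a stretch with more insertions than its surroundings, and in a pool of sorted cells a peak open in few cells cannot be told apart from one weakly open in many.

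The cells came from healthy triple transgenic mice that carried mIns1-H2b-mCherry, Rosa-LSL-YFP and a Cre driver. In these mice an Ins1 promoter drives a red nuclear reporter in beta cells, and Cre switches on YFP. Alpha cells were sorted from animals with Gcg-Cre and delta cells from animals with Sst-Cre, and beta cells from either cross. Islets were pooled by sex, so each library is 1 pool of animals and not 1 mouse. No age was given in the labels, and the strain was given only as mouse. Alpha cells are therefore those that had expressed the Gcg-Cre transgene, and all 3 cell types shared both reporters. Alpha 1 was a pool of females and alpha 2 of males. Chromosome Y held 0.0816% of the peaks of alpha 1 and 0.558% of those of alpha 2, and chromosome X held 5.57% and 2.78%.

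The lists differed in length and in how far their peaks could be trusted. They held from 75860 (delta 2) to 518503 (beta 1) peaks, and from 5% (beta 1) to 54.9% (delta 2) of these had a -log10 q of at least 2. The library labelled beta 1 stands apart in both respects, and the main counts and shares that rest on the absence of a beta 1 peak are given with and without it where they are first stated. Peak names in the beta lists carry alpha (beta 1) or delta (beta 2 and beta 3) in place of beta. At the 5' end of Ins1, an insulin gene, beta 1 had a peak at the 98.7th percentile, beta 2 at the 41.7th and beta 3 at the 86.7th. Alpha 1 and alpha 2 stood at 21.2 and 53.3 there, and delta 1 and delta 2 at 77.2 and 13.9. Ins1 thus did not set beta 2 apart from alpha 2 or delta 1. At the 5' end of Gcg none of the 3 beta lists had a peak. The labels were used throughout. Peak names also show that both alpha libraries and beta 1 ran in one lane and the other 4 libraries in another, so a difference between alpha and delta cells cannot be told apart from one between lanes. The mouse cross that the peak names give divides the libraries in the same way. Cells of several types were sorted from the same animals, so libraries of one cross may share a pool, and which of them do was not given in the labels. Because the lists are of unequal depth, the strength of a peak is given as its percentile by -log10 p within its own list. In the long beta 1 list these percentiles run high.

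The sequences printed here are those the results turn on. They are the Gcg promoter, which is open in both alpha lists, a second region upstream of Gcg that is open in all 7 lists, the 2 regions near Irx1 and Pou3f4 that no beta or delta list contained, and the 5 strongest regions of that kind in the genome. Capitals mark matches on either strand to 14 short motifs, each named for a factor family that binds such letters. These were Forkhead TGTTTAC, MAF TGCTGAC, E-box CAGATG, RFX GTTGCCA, homeodomain TAATTA, HNF1 GTTAATNAT, AP-1 TGACTCA, CRE TGACGTCA, NFI TTGGCAC, then AGATAAG for the GATA family, NRF1 GCGCATGCG, SP/KLF GGGCGGGG, ETS CCGGAAG and CTCF AGGGGGC. The first sequence reads 5′ to 3′ on the minus strand, toward Gcg, from the RefSeq promoter table of GRCm38.p6, and the others are 200 bases around the summit on the plus strand.
Gcg promoter, chr2:62483654-62483903: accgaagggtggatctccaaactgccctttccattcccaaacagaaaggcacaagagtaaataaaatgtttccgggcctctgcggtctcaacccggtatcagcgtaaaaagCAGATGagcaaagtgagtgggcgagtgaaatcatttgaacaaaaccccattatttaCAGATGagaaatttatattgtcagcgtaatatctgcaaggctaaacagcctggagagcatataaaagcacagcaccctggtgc
Gcg upstream, open in all lists, chr2:62485037-62485236: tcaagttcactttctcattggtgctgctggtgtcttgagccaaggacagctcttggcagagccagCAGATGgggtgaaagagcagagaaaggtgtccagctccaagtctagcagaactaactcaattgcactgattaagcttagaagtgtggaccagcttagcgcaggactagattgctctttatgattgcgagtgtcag
Irx1 upstream, chr13:71964473-71964672: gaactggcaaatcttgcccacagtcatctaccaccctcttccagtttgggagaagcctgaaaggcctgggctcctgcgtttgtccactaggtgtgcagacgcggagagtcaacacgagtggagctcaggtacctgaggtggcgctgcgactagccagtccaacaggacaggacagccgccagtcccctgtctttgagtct
Pou3f4 upstream, chrX:110771021-110771220: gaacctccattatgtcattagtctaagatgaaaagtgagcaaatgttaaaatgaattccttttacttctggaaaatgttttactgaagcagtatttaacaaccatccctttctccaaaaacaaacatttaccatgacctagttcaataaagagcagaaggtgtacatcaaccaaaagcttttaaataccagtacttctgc
Ptprm intron, chr17:66752499-66752698: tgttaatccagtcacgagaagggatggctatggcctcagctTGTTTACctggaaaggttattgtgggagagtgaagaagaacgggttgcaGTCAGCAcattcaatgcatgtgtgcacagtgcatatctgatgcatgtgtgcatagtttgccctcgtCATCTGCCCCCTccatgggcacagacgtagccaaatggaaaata
Caln1 intron, chr5:130553888-130554087: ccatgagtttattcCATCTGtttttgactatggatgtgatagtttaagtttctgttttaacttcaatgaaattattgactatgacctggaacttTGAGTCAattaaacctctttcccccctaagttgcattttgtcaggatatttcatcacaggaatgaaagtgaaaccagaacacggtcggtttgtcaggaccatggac
Dclk2 intron, chr3:86802930-86803129: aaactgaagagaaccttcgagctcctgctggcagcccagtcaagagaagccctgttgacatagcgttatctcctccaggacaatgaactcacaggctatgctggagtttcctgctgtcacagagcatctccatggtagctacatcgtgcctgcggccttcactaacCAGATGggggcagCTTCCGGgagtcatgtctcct
Intergenic, nearest gene start Clint1, chr11:45634665-45634864: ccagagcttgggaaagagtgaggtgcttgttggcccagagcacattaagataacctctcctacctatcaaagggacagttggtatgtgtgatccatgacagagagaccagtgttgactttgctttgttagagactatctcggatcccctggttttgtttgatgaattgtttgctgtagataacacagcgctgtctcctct
Intergenic, nearest gene start Triml1, chr8:42340097-42340296: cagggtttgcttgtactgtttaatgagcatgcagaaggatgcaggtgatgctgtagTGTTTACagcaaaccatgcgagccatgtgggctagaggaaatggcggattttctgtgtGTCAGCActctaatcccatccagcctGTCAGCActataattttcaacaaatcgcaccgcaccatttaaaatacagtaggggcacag
The Gcg promoter held 2 E-box matches, the letters that NeuroD1 dimers bind, and the second Gcg region held 1. The window in the Ptprm intron had Forkhead, MAF, E-box and CTCF letters, the last 2 sharing 1 base. The window near Triml1 had 1 Forkhead and 2 MAF matches. The window in the Caln1 intron had AP-1 and E-box letters, and that in the Dclk2 intron had E-box and ETS letters. The windows near Irx1, Pou3f4 and Clint1 held none of these letters. A match is a run of letters and not a measured binding site.

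The 2 libraries were first compared with each other. Of the 131151 peaks of alpha 1, 47356 (36.1%, 95% Wilson interval 35.8 to 36.4) lay in a region that both lists contained, and of the 111961 peaks of alpha 2, 46726 (41.7%, 41.4 to 42.0) did. These intervals cover counting error only. Sharing was highest among strong peaks. Each list was divided into 10 bins of equal size by -log10 p. In the strongest bin, 91.7% of the peaks of alpha 1 and 98.7% of those of alpha 2 were in both lists, in the fifth 25.6% and 33.8%, and in the weakest 7.97% and 9.93%. Peaks in both lists had a median fold enrichment over the local background of 5.07 in alpha 1 and 5.61 in alpha 2, against 3.0 and 2.93 for the others. Where both lists had a peak, their summits lay a median of 32 bp apart, and 83.1% of regions had them within 100 bp. Across the 45594 regions the percentiles in the 2 libraries had a Pearson r of 0.566 and a Spearman rho of 0.727, as a description over regions that are not independent. A -log10 q of at least 2 in both libraries held for 30455 regions (66.8%), and 4800 (10.5%) reached it in neither.

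**Figure D1:**
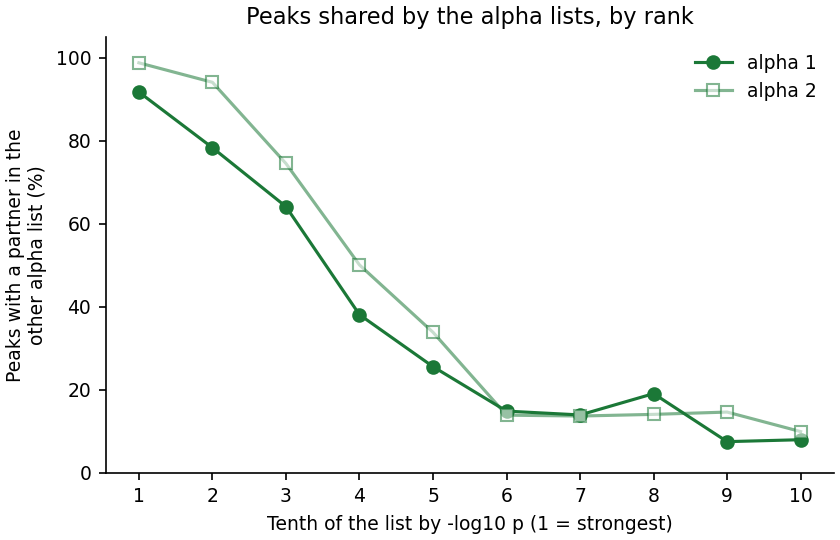
Share of peaks (%) that lie in a region found in both alpha lists, in 10 bins of equal size from the strongest to the weakest by -log10 p, for alpha 1 and alpha 2. The share is above 90% in the strongest bin of both libraries and below 10% in the weakest.

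The label was checked at the 4 marker genes Gcg, Irx1, Irx2 and Ttr and at 4 further alpha cell genes. A gene was counted as having an open start where its 5' end had a peak no farther than 1 kb away. All 8 genes had an open start in both alpha libraries, where 12439 of 21911 protein-coding genes (56.8%, 56.1 to 57.4) did. With RefSeq 5' ends 7 of the 8 did, since that of Irx2 lies 4.39 kb away and had no peak in either alpha list. At Gcg, which encodes preproglucagon, the peak stood at percentile 94.1 in alpha 1 and 91.6 in alpha 2. No beta list had one, delta 1 had none, and delta 2 had one at 47.1. Gcg was the gene of the 8 with a start peak in the fewest of the other lists.

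Irx1 is a homeobox gene of the Iroquois family. Its start stood at percentile 93.3 in alpha 1 and 80.3 in alpha 2, at 45.3 in beta 3, at 72.4 in delta 1 and at 19.7 in delta 2, with no peak in beta 1 or beta 2. Both alpha libraries were above every other library at Gcg and at Irx1, and at the GENCODE start of Irx2. Irx2, of the same family, had a start peak in every list, at 97.4 and 98.4 in alpha cells, 7.93, 80.9 and 91.8 in beta 1 to beta 3, and 89.5 and 84.2 in delta 1 and delta 2.

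The other 5 genes had open starts in most lists. Ttr, which encodes the carrier protein transthyretin, stood at 85 and 77.9 in alpha 1 and alpha 2, at 86.9 in beta 1 and 63.1 in beta 3, at 78.0 and 59.8 in delta 1 and delta 2, and had no peak in beta 2. Gc, the vitamin D-binding protein, stood at 94.6 and 93.4 in alpha cells, at 96.7, 32.7 and 66.9 in beta cells and at 93.3 and 78.5 in delta cells. For both genes the alpha values at the GENCODE start overlapped those of the other libraries, with beta 1 the only library above both alpha values at each. The RefSeq start of Ttr lies 1.07 kb away, and there the alpha values were the same. Beta 1 stood at 2.14 and beta 3 at 63.1 there, both below the alpha libraries, and beta 2 and both delta lists had no peak. The starts of Pou3f4, a POU-domain factor, of Slc7a2, a carrier of arginine and lysine, and of Etv1, an ETS factor, were open in all 7 lists. All of them stood above the 83rd percentile in each list. Median percentiles of the 8 starts were 94.3 in alpha 1 and 94.6 in alpha 2, beside 90.3 and 90.4 for all genes with an open start.

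**Figure D2:**
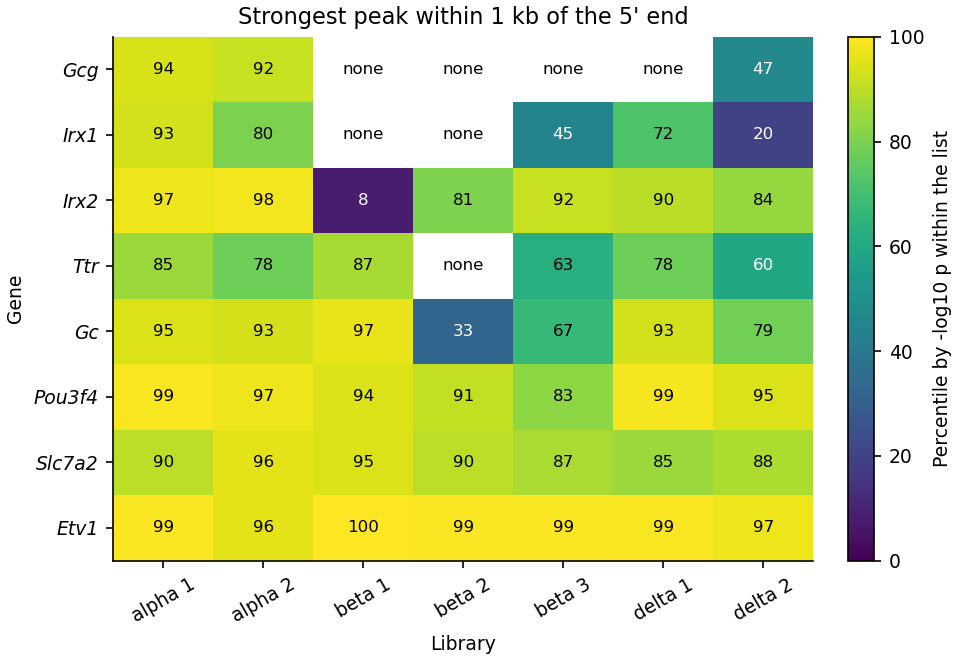
Percentile by -log10 p within its own list (colour and number) of the strongest peak at the start (within 1 kb) of 8 alpha cell genes in each of the 7 libraries, with none where the list has no peak. Gcg, Irx1 and Irx2 are high in both alpha libraries and absent or lower in the others. Pou3f4, Slc7a2 and Etv1 are high in all.

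Around the same 8 genes, within 50 kb of the gene, both alpha lists had 42 distinct regions. No beta or delta list overlapped 3 of them (7.14%), and all 5 other lists overlapped 13 (31%), while over all alpha regions these shares were 7.10% and 38.5%. At least 1 region absent from the other lists lay near 3 of the 8 genes, Gcg, Irx1 and Pou3f4, while 4187 of all protein-coding genes (19.1%) had one. Without beta 1 there were 6 such regions, near 5 of the 8 genes, and 6850 of all genes (31.3%) had one. The number of alpha regions ran from 2 at Irx2 to 8 at Slc7a2 and at Etv1, with a median of 5, beside 4 over all genes.

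Gcg had 7 regions. The one over its start, chr2:62483427-62483948, overlapped a peak of delta 2 and of no other library. The region 1.49 kb upstream, chr2:62485003-62485281, was open in all 7 lists, at percentile 84.8 and 84.5 in alpha cells, 99.2, 82.4 and 92.8 in beta 1 to beta 3, and 96.2 and 86.1 in delta cells. The 2 Gcg regions thus differed in where they were open although they lie next to each other. Downstream of the gene, a region 9.58 kb from the start (chr2:62473825-62474397, 70.0 and 81.6 in alpha cells) overlapped both delta lists and no beta list, and one at 10.3 kb (chr2:62473188-62473676, 21.3 and 72.3) overlapped delta 1. The strongest region near Gcg that no other list contained lay 18.9 kb upstream (chr2:62502304-62502817, 79.7 and 80.4). It lies inside Fap, which encodes a fibroblast serine protease, 607 bp from a start of a Fap transcript, and overlaps an annotated UTR. The last 2 regions lay 12.9 kb upstream and 42.4 kb downstream, the latter by a start of a non-coding gene near Dpp4, and that one was open in all 7 lists.

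Irx1 had 4 regions. The start region chr13:71963552-71964039 (93.3 and 80.3) overlapped peaks of beta 3 and both delta lists, and the region 0.85 kb upstream (chr13:71964438-71964730, 77.2 and 55.7) overlapped no other list. A wide region of 1438 bp lay 17.3 kb downstream, in an intron of the non-coding gene Gm40999 (chr13:71945139-71946576). It was open in all 7 lists, at 90.1 and 86.8 in alpha cells. At Pou3f4 the region absent from the other lists was weaker, 43.2 kb upstream in an intron of the lincRNA Gm44593 (chrX:110771021-110771412, 65.6 and 36.6). Pou3f4 is on chromosome X, whose share of peaks differed between the female and the male pool, and the part of this in its values was not tested. At Ttr the start region chr18:20665159-20665784 overlapped a peak of beta 3 only, so the start peaks of beta 1 and of the delta lists lay beside it, within 1 kb of the start.

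**Figure D3:**
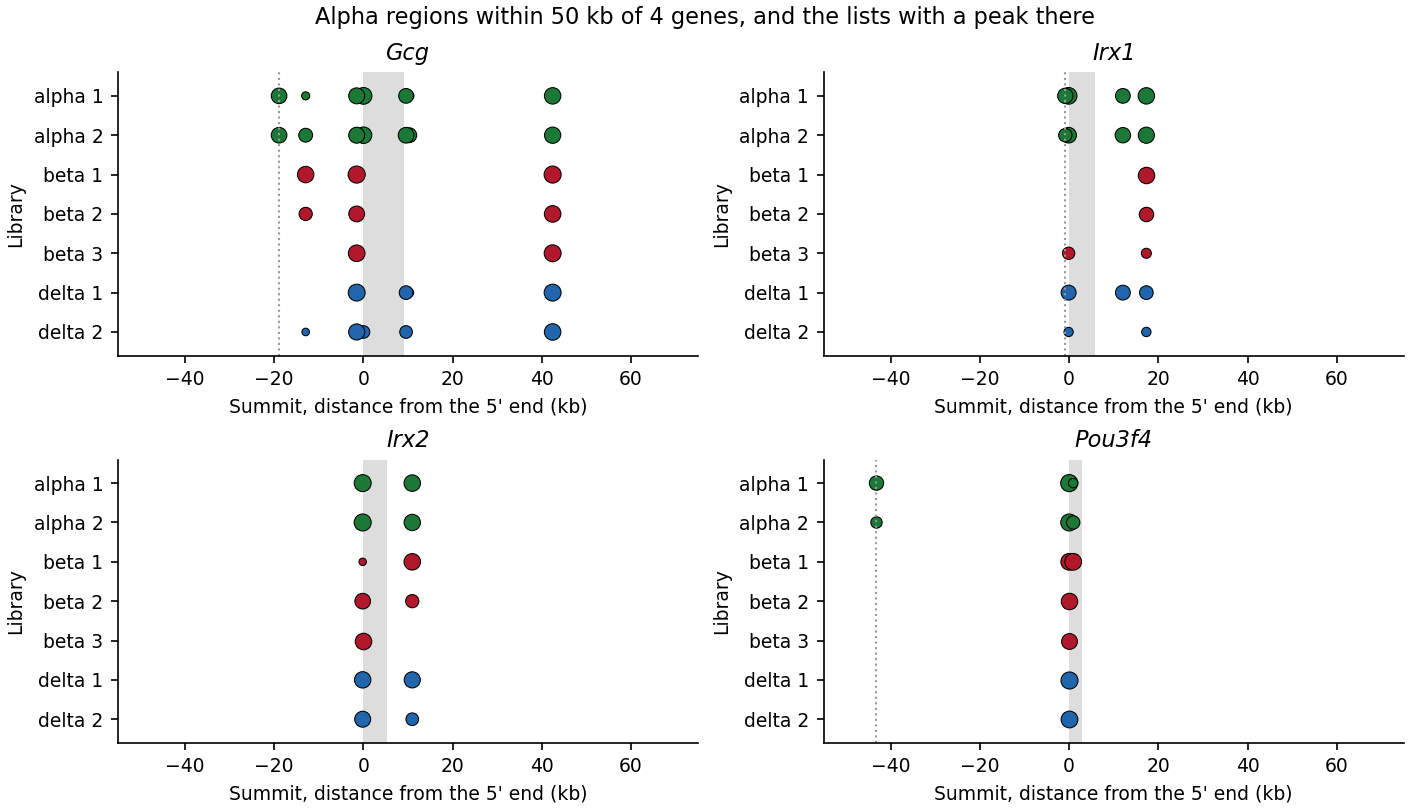
Alpha regions within 50 kb of Gcg, Irx1, Irx2 and Pou3f4 by distance of the summit from the 5' end (kb, downstream positive), with 1 row per library and a dot where its list has a peak in the region. Dot size grows with the percentile of the peak, the grey band is the gene body, and a dotted line marks a region that no beta or delta list overlaps, as near Gcg, Irx1 and Pou3f4.

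Across the genome the alpha regions covered 21.9 Mb. Their median width was 419 bp (interquartile range 312 to 591), from 200 to 3307 bp, and 75 were wider than 1500 bp. Autosomes held from 15.7 (chromosome 19) to 20.5 (chromosome 10) regions per Mb, chromosome X held 8.68 and chromosome Y 0.27, with 25 regions. Within 3 kb of an annotated transcript start lay 19843 regions (43.5%), called promoter-proximal here, 12054 (26.4%) were intronic, 1371 (3.01%) exonic and 12326 (27.0%) intergenic. Promoter-proximal regions were wider, with a median of 551 bp against 362 bp for intronic and for intergenic regions, and stronger, with a median lower percentile of 82.5 against 61.4 and 65.1. The promoter-proximal share was 80.9% in the strongest 10% of regions, ranked by the lower of the 2 alpha percentiles, and 26.6% in the weakest 10%.

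The alpha regions were then compared with the beta and delta lists. All 5 of these lists overlapped 17549 regions (38.5%, 38.0 to 38.9), and none overlapped 3239 (7.10%, 6.87 to 7.34), called alpha-only here. The remainder overlapped 1 list (11.5%), 2 lists (12.2%), 3 lists (14%) or 4 lists (16.6%). Delta 1 overlapped 79.7% of the alpha regions and delta 2 71.3%, beta 1 74.1%, beta 2 51.5% and beta 3 60.5%. Delta 2 had the shortest list of all 7, but its 41683 peaks at a -log10 q of at least 2 outnumbered those of beta 2 (32047) and beta 3 (38058). Both delta lists and no beta list overlapped 1981 regions (4.34%), and at least 2 beta lists and no delta list 880 (1.93%). Without beta 1 the alpha-only regions were 5747 (12.6%), those of both delta lists and no beta list 4652 (10.2%), and those of both remaining beta lists and no delta list 255 (0.559%). Without delta 1 the alpha-only share was 10.7%. By the study's quality metrics, each beta library used here had fewer unique mapped reads than either alpha library, as had delta 2. Delta 1 had more than either alpha library. The part of sequencing depth in these counts was not tested.

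Alpha-only regions were weaker than shared ones. The median of the lower alpha percentile was 36.6 in regions that no other list overlapped and 89.0 in those that all 5 did, and it was higher with each further list. A -log10 q of at least 2 in both alpha libraries was reached by 600 alpha-only regions (18.5%) and by 92.1% of those in all 5 lists. Of the alpha-only regions, 21.7% (20.3 to 23.1) were promoter-proximal, against 61.6% (60.9 to 62.4) of those in all 5 lists. Without beta 1 the median of regions in no other list was again 36.6, and 21.4% were promoter-proximal. No read counts stood behind a missing peak, so whether an alpha-only region is closed in the other cells was not detectable from these lists.

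**Figure D4:**
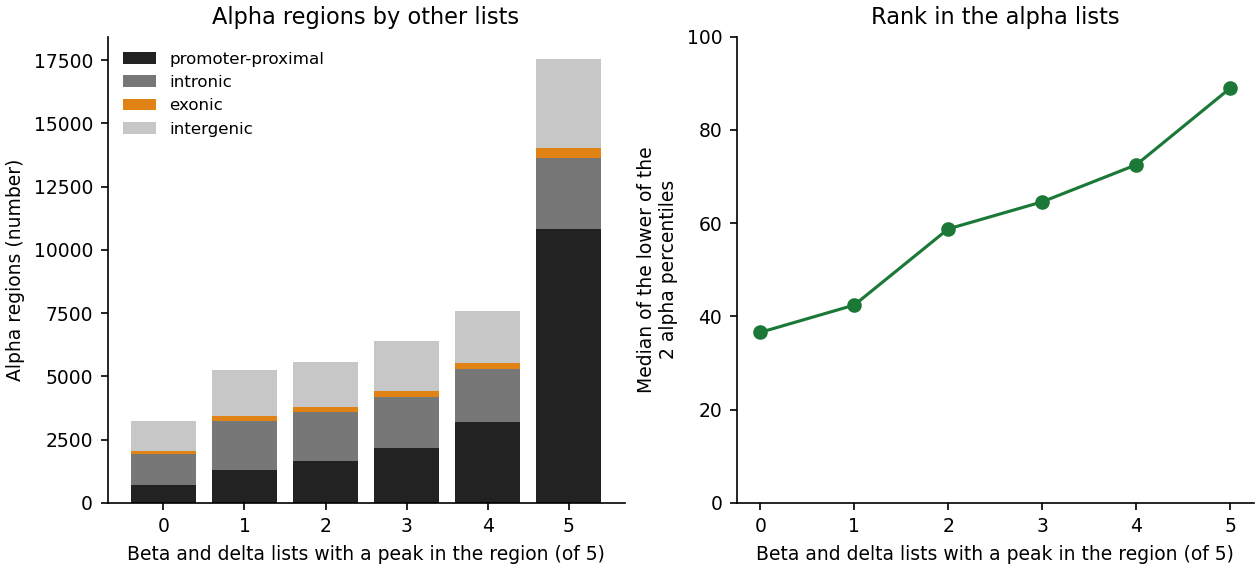
Left, number of alpha regions by how many of the 5 beta and delta lists overlap them, split by position. Right, the median of the lower of the 2 alpha percentiles in the same bins, which goes from 36.6 with 0 lists to 89.0 with 5.

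The strongest alpha-only regions lay in or near genes that are not among the known alpha cell genes listed here. The first, chr17:66752375-66752904, is in an intron of Ptprm, a receptor tyrosine phosphatase, 158 kb from the start of Themis3, and stood at percentile 95.2 in alpha 1 and 89.9 in alpha 2. The second, chr5:130553874-130554103, is in an intron of Caln1, a calmodulin-like gene, 169 kb from the start of A330070K13Rik, and stood at 97.2 and 88.3. The next 3 were chr11:45634587-45635032, 217 kb from the start of Clint1 (89.3 and 87.8), chr3:86802828-86803193, in an intron of the doublecortin-like kinase gene Dclk2 (87.1 and 87.9), and chr8:42339972-42340438, 801 kb from the start of Triml1 (91.2 and 86.7). All 5 were distal, none lying within 100 kb of the start of the gene nearest to it.

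Few gene starts were open in alpha cells alone. Both alpha lists and no other had a start peak at 74 of 21911 genes (0.338%), and the median of the lower percentile at these was 36.6. Without beta 1 there were 163 (0.744%). The highest by the lower percentile were Adora2b, an adenosine receptor gene, at 77.3 and 75, the peptidase gene Dpp7 at 79.7 and 75, and the Mediator subunit gene Med18 and Ccdc57, both at 74.6 and 75. These 4 were picked after their values were seen. None of the 8 alpha cell genes was among the 74 or the 163, since each had a start peak in at least 1 other list.

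Base composition and short motifs were read in windows of 300 bases around the summit. Promoter-proximal alpha regions had a median GC content of 61.7% with 20 CpG dinucleotides, and distal alpha regions 46.7% with 3. Alpha-only distal regions had a median GC content of 46.0%, distal regions of all 5 other lists 47.0%, and distal regions of at least 2 beta or delta lists and no alpha list (36355 regions) 45.0%. Over all 834695 merged regions it was 43.7%, and over the 699109 distal ones 43.3%. Among promoter-proximal regions, SP/KLF letters were in 26.2%, ETS letters in 12.2% and NRF1 letters in 2.19%, against 5.56%, 3.04% and 0.386% of the 135586 promoter-proximal merged regions.

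Among the 25751 distal alpha regions, AP-1 letters were in 20%, against 11.7% of the distal regions without an alpha peak and 6.87% of all distal merged regions. AP-1 is the dimer of Fos and Jun proteins. The merged regions include the 518503 peaks of beta 1, of which 5% had a -log10 q of at least 2. Distal regions without an alpha peak were not recounted without beta 1. For AP-1 and the motifs below, these sets were not matched to the alpha regions in peak strength. The AP-1 share was lower in alpha-only regions (14.6%, 13.3 to 16.1) than in distal regions of all 5 other lists (25.3%, 24.3 to 26.4). It also went with strength, from 15.7% in the weakest 10% of distal alpha regions to 28.6% in the strongest 10%. Alpha-only regions are mostly weak, and the part of strength in their share was not tested. Among the 465 alpha-only distal regions with a -log10 q of at least 2 in both libraries, 19.6% (16.2 to 23.4) held AP-1 letters. Without beta 1 the AP-1 share was 13.1% (12.2 to 14.1) in the 4519 distal regions of no other list. In the 7205 of all 4 others it was 25.2% (24.2 to 26.2). MAF letters, a site of the Maf family, were more frequent in alpha-only regions than in those of all 5 other lists, but had a like share in regions shared with beta cells only. They were in 10.7% (9.54 to 11.9) of the 2537 alpha-only distal regions and in 7.66% (7.05 to 8.32) of those in all 5 lists, although their share ran from 7.11% in the weakest 10% to 10% in the strongest 10% of distal alpha regions. In the 652 distal alpha regions of at least 2 beta lists and no delta list the share was 11.5% (9.28 to 14.2), and in the 1379 of both delta lists and no beta list 7.32% (6.06 to 8.82). Without beta 1 it was 9.18% (8.38 to 10.1) in regions of no other list and 7.58% (6.99 to 8.21) in those of all 4 others. In the 465 alpha-only distal regions with a -log10 q of at least 2 in both libraries it was 14% (11.1 to 17.4). Of all distal alpha regions 8.31% held MAF letters, of distal regions without an alpha peak 6.25%, and of all distal merged regions 5.14%.

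Forkhead letters, which Foxa proteins bind, were in 9.92% of distal alpha regions, 7.65% of alpha-only ones, 5.95% of those without an alpha peak and 4.88% of all merged regions. E-box letters were in 29.3% of distal alpha regions, 26.2% of those without an alpha peak and 24.1% of all distal merged regions. GATA letters were in 4.99% of distal alpha regions and 5.75% of the alpha-only ones, beside 4.44% of all distal merged regions. But they were in 6.45% of the distal alpha regions of both delta lists and no beta list. In the alpha-only ones with a -log10 q of at least 2 in both libraries the share was 4.95%. RFX letters were in 6.49% of distal alpha regions and 3.30% of all distal merged regions, and HNF1 letters in 2.30% and 1.07%. Homeodomain letters went against this, with 9.02% in distal alpha regions and 9.23% in all distal merged regions. They were in 7.29% of the alpha-only ones (8.56% without beta 1) and in 9.83% of those without an alpha peak. NFI, CTCF and CRE letters were in 3.43%, 4.44% and 0.749% of distal alpha regions and in 2.86%, 2.50% and 0.196% of all distal merged regions. At promoters CTCF letters were in 13.6% of alpha regions and 5.45% of all merged regions. AP-1 and MAF letters can share bases, and did so in 10.5% of the distal alpha regions with MAF letters and 9.23% of the alpha-only ones.

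The genes with most alpha regions were long. A gene had a median of 4 regions within 50 kb (interquartile range 2 to 6), 2769 genes (12.6%) had none, and the 99th percentile was 15. Gm20388 led with 111, but its GENCODE model spans 4435 kb and has 71 other protein-coding genes inside it. Fgfr2, a fibroblast growth factor receptor, followed with 63 in a GENCODE model of 2961 kb with 29 genes inside. In RefSeq, whose Fgfr2 model is chr7:130162451-130266808, it had 3. With RefSeq models the leading gene was Nav2 with 36 regions.

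After these came Nav2, a neuron navigator gene, with 37 in the GENCODE models, the scaffold gene Dlg2 and the teneurin gene Tenm4 with 33 each, the cAMP phosphodiesterase gene Pde4d and the receptor phosphatase gene Ptprd with 32 each, Ntm, an adhesion molecule, with 31, and Fhit and the Notch coactivator gene Maml3 with 30 each. Windows of these 8 genes ran from 519 to 2371 kb. Across all genes the number of regions and the length of the window had a Spearman rho of 0.323. The start of Dlg2 was among the strongest in all 7 lists, at 99.9 in both alpha libraries, while that of Nav2 had no peak in alpha 1. Alpha-only regions were 6 at Fhit, 5 at Ntm and Pde4d, and 1 at Dlg2 and Tenm4.

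Per length the picture was another. The median gene had 2.76 regions per 100 kb, and 185 genes (0.844%) had at least 10. The highest density, 24.7 per 100 kb, was that of Gm10721 at the first assembled bases of chromosome 9, where 8 other predicted genes had 23.2 to 24.7. Next came the histone gene Hist1h3g with 17.9, Gm13283 with 16.8, the RNA polymerase I subunit gene Cd3eap with 15.5, Midn with 15.4, the AP-1 gene Junb with 13.4, Fem1a with 13.1, the histone gene Hist1h2bn with 13.0, Bola1 with 12.2 and the mitochondrial transporter gene Abcb8 with 12. Of the 10 genes that lead these loci, 2 were histone genes, and the other genes in their windows were not counted. Each of the 10 genes had an open start in both alpha lists.

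Most regions stood alone. The median gap between neighbours was 26.7 kb, and when regions at most 5 kb apart were joined, 35420 of 40192 clusters were single regions, which hold 77.7% of all regions. Only 75 clusters had 4 or more regions and 2 had 10 or more. The largest, chr9:3000547-3035527, had 24 regions in 35.0 kb and begins 547 bp after the 3 Mb of unassembled sequence at the chromosome's start. All 5 other lists overlapped 18 of its regions. The second, chr4:88773636-88806304, had 12 regions at Ifnz and its neighbours of the type I interferon family, every one in all 5 other lists.

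On chromosome 6, chr6:47654794-47685815 and chr6:47739628-47772523 had 8 regions each, 7 of each in all other lists. RefSeq places the 4.5S RNA gene Rn4.5s and predicted genes in the first. Next came clusters of 6 regions at Sox4, a transcription factor gene of endocrine development, at Plekhg2 and Zfp36, at Aen and Mir7-2, the last of them a miR-7 gene, and on chromosome 16 in a stretch 50 kb from Btg3. A histone cluster on chromosome 13 and the locus of Arhgef40, Zfp219 and Tmem253 had 5 each. None of these 10 clusters held an alpha-only region.

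The widest regions were also shared. The 3 widest were chr1:24612878-24616184 (3307 bp), chr4:80002420-80005243 (2824 bp) and chr2:22588440-22590573 (2134 bp), all over pseudogenes. Of their 31-base words, 99.1%, 11.5% and 46.8% also occur in mitochondrial DNA, and 4 of the alpha regions had at least 50% of their words there. The next 7 lay over gene starts and had none of these words, among them those at Xkr4 (2039 bp), Fbxo36 and Trip12 (1972 bp), 1190002N15Rik (1897 bp), Zbtb11 (1890 bp), Fbxl17 (1862 bp) and the DNA polymerase zeta gene Rev3l (1842 bp). All 10 were open in all 7 lists. Of the 100 widest regions, 97 were promoter-proximal and 95 were in all 5 other lists. Transfer RNA genes were a further class of short open loci, with an alpha region at 129 of 408 (31.6%) in RefSeq. Single lists had a peak at 145 (alpha 1) and 160 (alpha 2) of them, at 127, 81 and 88 in beta 1 to beta 3, and at 126 and 107 in delta cells.

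Which genes had more peaks near them in alpha cells was asked with lists cut to the same length. The 50000 strongest peaks of each list were counted within 50 kb of each gene, and both alpha libraries were compared with the other 5 by a two-sided exact permutation test. The smallest p that 2 against 5 libraries allow is 0.0476, reached only where the groups do not overlap, and after Benjamini-Hochberg adjustment over 21683 genes with any such peak no p was below 0.780. So no gene passed the adjusted test, and the genes named are a description. The smallest p was reached with both alpha libraries above the other 5 at 1102 genes (5.08%) and below them at 222 (1.02%). Peaks near genes summed to 97702 and 99775 in the alpha libraries and to between 80501 and 95708 in the others. After each count was divided by its library's sum, 885 genes were higher and 495 lower, so the higher share of such genes fell from 83.2% to 64.1%. Within the lane shared with beta 1, both alpha libraries were above beta 1 at 8899 genes (41.0%) and below it at 4297 (19.8%). Counts of this comparison were not divided by the library's sum, which was 83129 in beta 1 and thus lower than in either alpha library.

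The largest surplus was in the long Fgfr2 model, with 67 and 65 peaks in alpha cells against 20, 31, 36, 37 and 28 (beta 1 to beta 3, delta 1 and delta 2, an order kept in what follows). In the RefSeq model of Fgfr2 the counts were 4 and 3 against 3, 1, 0, 1 and 1 (exact permutation p = 0.0952), a difference of 2.3 peaks, where the long model had one of 35.6. Of the 11 alpha-only regions in the long model, 3 had the start of the sulfotransferase gene Chst15 as the nearest. Ntm and Opcml, neighbours on chromosome 9 that encode IgLON adhesion molecules, had 33 and 27 against 4, 13, 16, 24 and 17, and 25 and 25 against 9, 11, 13, 20 and 13. Rbms3, an RNA-binding protein gene, had 19 and 21 against 3, 12, 3, 10 and 7, and Tmem108, a transmembrane protein gene, had 12 and 18 against 3, 4, 5, 7 and 5. Each of the 5 genes was higher in both alpha libraries than in any other (exact permutation p = 0.0476). Counted over peaks whose -log10 q was at least 2, this held for all but Ntm (17.7 peaks more, exact permutation p = 0.0952), and with 20000 peaks per list for all but Opcml (1.8 more, p = 0.143 by exact permutation). At a -log10 q of at least 2 the lists are not of equal length. The alpha lists then hold the most peaks, 52057 and 49047, against 25903, 32047, 38058, 47042 and 41683 in the other 5. This setting thus leans toward higher counts in alpha cells, here and below.

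The largest deficit was at Nrxn3, a neurexin gene of synaptic adhesion, with 23 and 25 peaks in alpha cells against 60, 44, 44, 38 and 47. Thsd7b had 3 and 2 against 28, 19, 24, 14 and 13, and Spag16, a sperm axoneme gene, had 9 and 7 against 28, 26, 26, 20 and 13. The histone deacetylase gene Hdac9 had 13 and 10 against 26, 23, 27, 20 and 19, and Khdrbs2, a splicing regulator gene, had 4 and 6 against 17, 16, 8, 16 and 16. At all 5 the alpha libraries were the lowest 2 (exact permutation p = 0.0476). None of the 5 kept this when the count took only peaks whose -log10 q was at least 2, a setting in which the alpha lists are the longest. The difference at Nrxn3 then fell from 22.6 to 2.4 peaks (exact permutation p = 0.714) and that at Spag16 from 14.6 to 2 (exact permutation p = 0.667), while Thsd7b, Hdac9 and Khdrbs2 had 6.7, 5.5 and 4.3 peaks fewer in alpha cells. With 20000 peaks per list Thsd7b and Khdrbs2 kept it.

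Among the alpha cell genes, Irx1 had 5 and 6 peaks against 3, 1, 3, 3 and 1 (exact permutation p = 0.0476), but in windows of 10 kb and of 100 kb the groups did not reach it (exact permutation p = 0.143 in both). Gcg had 7 and 7 against 6, 4, 3, 3 and 6 and was also without overlap on the higher side, but its p over all assignments was 0.0952. Groups overlapped at the other 6, as at Slc7a2 with 8 and 7 against 4, 4, 2, 9 and 7 and at Irx2 with 2 and 3 against 2, 2, 5, 4 and 4. So 1 of the 8 reached the smallest p on the higher side and none on the lower, beside 5.08% and 1.02% of all genes.

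**Figure D5:**
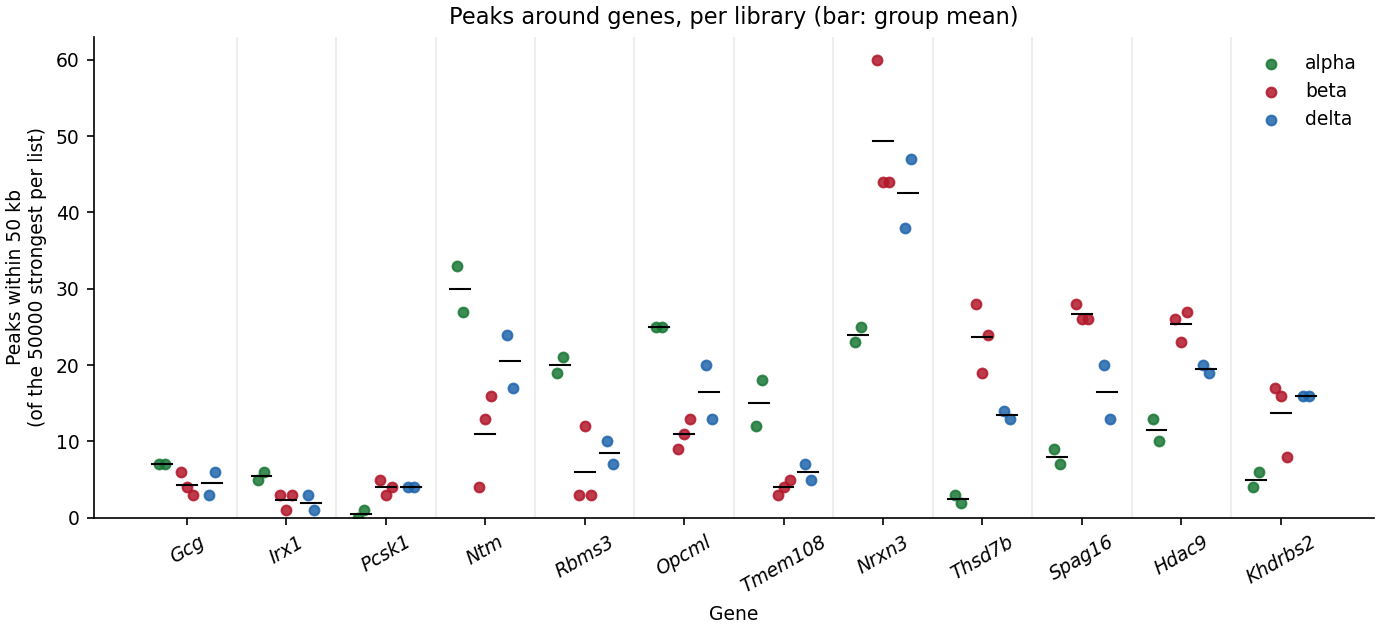
Number of peaks within 50 kb of a gene among the 50000 strongest peaks of each list, for Gcg, Irx1, Pcsk1 and the genes with the largest differences in each direction other than the Fgfr2 model. Each point is 1 library and the bar is the mean of its group. Alpha libraries lie above the others at Ntm and Irx1 and below them at Nrxn3 and Thsd7b.

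Genes of the endocrine program were then read list by list. Their open starts are to be set beside the 56.8% of all protein-coding genes, and the counts by RefSeq 5' ends are given where they differ. Of 16 endocrine transcription factor genes, 13 (81.3%) had an open start in both alpha lists, or 11 by RefSeq, and the highest by the lower percentile were Gata6 (98.1 and 98.9), Isl1 (97.3 and 96.2) and Neurod1 (98.1 and 95.8). Hnf4a and St18 had a start peak in alpha 2 only, and Myt1 in neither. All 12 genes of hormone processing and granules had an open start, from Scg3 (98.7 and 99.2), a granule protein with no peak at its RefSeq start in any list, to chromogranin A, Chga (22.4 and 17.3). Pcsk2, the convertase that cuts proglucagon to glucagon, stood at 94.3 and 95.6, and its 9 and 12 nearby peaks overlapped the others at 7, 6, 8, 11 and 12. Pcsk1, the convertase of proinsulin, had 0 and 1 against 5, 3, 4, 4 and 4 (exact permutation p = 0.0476), and was the only gene of the list at the smallest p. Its difference of 3.5 peaks fell to 2.5 at a -log10 q of at least 2 (exact permutation p = 0.0952) and to 1 with 20000 peaks per list (exact permutation p = 0.286). Its start was open in every list.

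Genes of secretion and excitability had many regions. All 10 genes of the exocytosis machinery had an open start, from the vesicle GTPase gene Rab3a (98.2 and 98.3) to the vesicle SNARE gene Vamp2 (11.8 and 36.6), and their median was 10 regions within 50 kb. Of 10 ion channel genes 7 (70%) had one, among them the sodium channel gene Scn9a (93.8 and 97.6). The exceptions were the calcium channel genes Cacna1a, Cacna1c and Cacna1d. The list's median was 11 regions in a window of 265 kb, while over all genes it was 4 in 117 kb. Alpha-only regions lay near 7 of the 10 channel genes and 5 of the 10 exocytosis genes and 19.1% of all genes had one, while without beta 1 these were 10, 7 and 31.3%. No gene of these 2 lists reached the smallest p for its nearby peaks.

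Of 10 receptor genes that bear on glucagon control, 7 (70%) had an open start, or 6 by RefSeq. The insulin receptor gene Insr stood at 97.4 and 97.8, and Sstr2, the somatostatin receptor of alpha cells, at 87.7 and 86.7. At Sstr2 the other 5 lists stood at 48.1, 53.8, 9.75, 84.9 and 35.2, all below both alpha libraries. Gcgr had a start peak in alpha 2 only, at 60.1. Glp1r, the GLP-1 receptor gene, had none in either alpha library, and stood at 85 in beta 1, 80.3 in beta 2, 65.1 in delta 1 and 55.8 in delta 2.

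Starts of beta and delta cell genes were open about as often as those of all genes (56.8%). Of 10 beta cell genes 6 (60%) had an open start in both alpha lists, among them Mafa (95.9 and 96.9), Nkx6-1 (95 and 93.2) and Pdx1 (60.7 and 78.0). Ins1 stood at 21.2 and 53.3, while Ins2 could not be read from its GENCODE model, whose 5' end lies 63.7 kb from that of RefSeq. Within 1 kb of the RefSeq start of Ins2 neither alpha library had a peak, beta 1 had one at 85.6 and beta 3 one at 0.303, and the other lists had none. The reporter carries an Ins1 promoter in every mouse, and the part of the transgene in the Ins1 peak was not tested. Slc2a2, the glucose transporter of beta cells, had no start peak in any list, and its nearby peaks were 6 and 7 against 10, 9, 8, 9 and 9, while those of Mafa were 4 and 4 against 3, 3, 3, 2 and 3 (exact permutation p = 0.0476 for both). The difference at Slc2a2 fell from 2.5 peaks to 1 at a -log10 q of at least 2 (exact permutation p = 0.476) and missed the smallest p in windows of 10 kb and 100 kb, and that at Mafa reversed with 20000 peaks per list. Of 6 delta cell genes 4 (66.7%) had an open start, such as Rbp4 (89.1 and 80.3, and 84.2 and 86.8 in delta cells) and Ffar4. No beta list had a peak at the start of Rbp4. Sst and Crhr2 had none in either alpha library.

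Most markers of other pancreatic cells had no peak at their starts. Both alpha lists had a start peak at 1 of 8 acinar genes (Ptf1a, at 0.98 and 8.94), 1 of 5 duct genes (Cftr, at 11.8 and 36.6, and by RefSeq also Krt7, at 92.1 and 81.1), 0 of 6 endothelial and 0 of 6 immune genes. Of 5 mesenchymal genes Col1a1, Col1a2 and Pdgfrb had weak ones, none above 42.4, and Col3a1 and Dcn none. Of 3 glial genes 1 had one, while the defining factor gene Sox10 had no start peak in any list. By RefSeq 2 of the 3 had one. The acinar enzyme genes Cpa1, Cela1 and Cela2a and the endothelial genes Cdh5, Tie1 and Plvap had no start peak in any list. More peaks near Tie1 and Col1a1 were counted in both alpha libraries than in any other (exact permutation p = 0.0476). Their differences were 2.2 and 3.1 peaks. With 20000 peaks per list that at Tie1 was 0 and that at Col1a1 reversed, and in windows of 10 kb neither reached the smallest p. Summed over the list, nearby peaks numbered 20 and 24 in alpha cells against 18 to 20 in the others for acinar genes, 29 and 25 against 20 to 34 for endothelial genes, and 21 and 21 against 18 to 24 for immune genes.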

How the data were processed

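ATAC-Seq libraries of sorted alpha, beta and delta cells were analysed from their peak lists, with groups taken from the labels. Per the labels' processing notes the authors used FastQC, Trimmomatic, Bowtie2, Picard and MACS2 on mm10, and the versions are not given in the sources used here. Reads were single-end 50 bp, and the study's methods state that blacklisted regions were removed. Peaks were called in each library separately. The deposited -log10 p and -log10 q values, fold enrichment (a ratio to the local background) and score come from the authors' MACS2 calls on that library alone. Lists hold no reads outside peaks, so read depth per region is unknown and no floor could be set where a peak is missing.

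Rows that repeat an interval were counted once. Percentiles rank peaks by -log10 p within a list. Merging was checked against bedtools 2.31.1. Genes are protein-coding in GENCODE vM21, and sequences and RefSeq models are of GRCm38.p6, read with samtools 1.23.1. Results of some genes that these rules name are not reported here, so 8 of the 10 alpha cell genes are given, and counts over the other lists keep all their members. Shares have 95% Wilson intervals, which leave out every error but that of counting. The replicates are pools of animals, and libraries of different cell types may share animals, so a p measures the spread between libraries that are not all independent.

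The members, gene lists, motifs and tests were chosen with earlier results of these data known. The rule names all alpha cell genes, 2 to 4 members by highest and lowest value of every other list, the 10 genes with most regions and the 10 with most per 100 kb, the genes at the 10 largest clusters and the 10 widest regions, the genes nearest to the 5 strongest alpha-only regions, and the 5 genes of smallest p and largest difference in each direction. Alternative settings took peaks with a -log10 q of 2 or more, 50000 or 20000 peaks per list, overlaps of 50% or more, other windows and gaps, any transcript start and a block for the replicate number, and left out 1 library at a time. RefSeq gene models and 5' ends, division by the library's sum and counts of alpha-only features without beta 1 were added after the data were seen. Python 3.11.15, numpy 2.4.6, pandas 2.3.3, scipy 1.17.1 and matplotlib 3.10.9 were used, and the steps were tested on simulated data.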

Additional observations from a re-analysis of the deposited data

How the results depend on the processing

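The count of regions in both alpha lists depends most on the number of lists and their length. It was 30004 with 50000 peaks per list, and from 111961 to 131151 where either alpha list was used alone. The alpha-only share was 9.04% at a -log10 q of at least 2, 6.79% with 50000 peaks per list, 13.5% where an overlapping peak had to cover at least 50% of the region, and from 7.63% to 49.2% with each library left out in turn. Beta 1 and delta 1 moved it to 12.6% and 10.7%. With a gap of at most 10 kb there were 6 clusters of 10 or more regions, and with 2 kb there were 0. Open starts ranged from 11196 to 13670 and the regions near the full list of 10 alpha cell genes from 35 to 69, against 12439 and 48, both within 1.5 times.

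Genes with more peaks near them in both alpha libraries were 2348 at a -log10 q of at least 2, a setting in which the alpha lists are the longest. They were 649 in windows of 10 kb and from 1174 to 2711 with a library left out. Genes with fewer were 58, 144 and from 272 to 593, and 495 after division by the library's sum. With 20000 peaks per list there were 775 and 303, of which 161 and 26 were the same genes, and Mafa (-0.2 peaks) and Col1a1 (-0.6) were among those that reversed direction. The cause was not tested. With a replicate block the counts were 1831 and 474, at a smallest p of 0.111 by exact permutation. Between same-numbered libraries, deviations from the group mean had r from -0.130 to 0.0233. In a group of 2 libraries these deviations mirror each other, so r cannot tell whether the numbers pair libraries or which libraries share animals. Over 21 genes, some not reported here, and their alternatives, 233 of 293 comparisons kept direction and side of the threshold, 57 kept direction only and 3 reversed.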
